A study of Homo sapiens with 4 samples.

Results

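The chromosome 19 microRNA cluster (C19MC) was examined as the 200 kb window from 54100001 to 54300000 on chromosome 19 (chr19:54100001-54300000, GRCh37, the sequence of hg19). Its members were all CpG sites listed at these coordinates, chosen by position. They numbered 3895 of the 27710999 CpGs on the autosomes and X, and matched all 3895 CG dinucleotides of the reference window. Reads were present in all 4 libraries at 3857 of them.

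The data were enzymatic methyl sequencing (EM-seq) libraries of HEK293T, a cell line derived from human embryonic kidney. In EM-seq, enzymatic conversion makes an unmethylated cytosine appear as T, and a methylated one keeps appearing as C. The WT group held 2 libraries of cells without the knockout. The ZNF274KO group held 2 libraries of cells from which ZNF274 had been deleted by CRISPR-Cas9 with a pair of guides, followed by puromycin selection and sorting of single cells into clones. The labels do not say whether the libraries of a group came from separate clones or cultures, so p-values measure only the spread between these libraries. Where many stretches were tested at once, that spread was estimated partly over all of them. The libraries are called WT 1, WT 2, ZNF274KO 1 and ZNF274KO 2. By mCG level is meant the share of C among the C and T calls at CpGs, in percent, and differences in level are in percentage points.

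C19MC is a primate-specific array of microRNA genes. In the placenta it is transcribed from the paternal allele, and the CpG island at the start of its host transcript is methylated on the maternal allele. A microRNA is cut from a hairpin precursor and finds its target mRNAs through its seed, the bases from position 2 to 8. ZNF274 is a KRAB zinc finger protein that binds many zinc finger genes, a family abundant on chromosome 19, and recruits machinery that deposits the histone mark H3K9me3. The window also holds DPRX, a homeobox gene expressed in early embryos, upstream of the array. Downstream lie MIR371A, MIR371B, MIR372 and MIR373, microRNA genes known from embryonic stem cells, and part of NLRP12, a gene of innate immunity.

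The targeted gene was checked first. At the 501 CpGs of ZNF274 there were 5158 reads in WT 1 and 4274 in WT 2, against 0 in ZNF274KO 1 (exact Poisson upper limit 3.69) and 14 in ZNF274KO 2 (95% interval 7.65 to 23.5). Over the autosomes and X the mCG level was 59.3% and 60.4% in WT 1 and WT 2, and 60.2% and 58.4% in ZNF274KO 1 and ZNF274KO 2. In the window the libraries held 37332, 30997, 30743 and 24945 reads in the same order, with a median of 9, 8, 8 and 6 reads per CpG. Since reads over neighbouring CpGs count once per CpG, reads are not independent molecules, and intervals cover counting error only.

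The annotation gave 51 microRNA genes in the window. Of these, 47 formed the array from MIR512-1 to MIR519A2 (chr19:54169927-54265684), all but 1 of them listed by GENCODE, and the other 4 were MIR371A, MIR371B, MIR372 and MIR373. RefSeq held mature sequences for 49 of the genes, under 73 names with 39 different seeds. The motif AAGUGC, searched on the RNA strand, lay within the first 8 bases of 17 mature microRNAs from 19 genes. Of these microRNAs, 8 are shown with their seed in capitals, to place the motif within or next to the seed.
hsa-miR-512-3p: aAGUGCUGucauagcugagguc
hsa-miR-519a-3p: aAAGUGCAuccuuuuagagugu
hsa-miR-519d-3p: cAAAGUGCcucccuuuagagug
hsa-miR-520a-3p: aAAGUGCUucccuuuggacugu
hsa-miR-520b-3p: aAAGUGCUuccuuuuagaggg
hsa-miR-520e-3p: aAAGUGCUuccuuuuugaggg
hsa-miR-372-3p: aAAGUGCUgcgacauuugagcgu
hsa-miR-373-3p: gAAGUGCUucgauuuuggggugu

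The other large groups carried other seeds. Among the mature sequences listed, the seed UCUAGAG was shared by products of 11 genes, AAAGCGC by products of 6, and UCGUGCA by the 3 MIR517 genes. For some genes, such as MIR518F, only the 5p product was listed, so a group may lack a gene. The seeds of miR-515-3p and miR-520g-3p hold related letters without the whole motif in the first 8 bases, and their genes were not counted among the 19. The seeds of miR-1283 and miR-498 were found in none of these groups.
hsa-miR-515-3p: gAGUGCCUucuuuuggagcguu
hsa-miR-520g-3p: aCAAAGUGcuucccuuuagagugu
hsa-miR-519a-5p: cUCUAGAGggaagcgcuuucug
hsa-miR-518b: cAAAGCGCuccccuuuagaggu
hsa-miR-517a-3p: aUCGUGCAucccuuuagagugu
hsa-miR-517c-3p: aUCGUGCAuccuuuuagagugu
hsa-miR-1283: uCUACAAAggaaagcgcuuucu
hsa-miR-498-5p: uUUCAAGCcagggggcguuuuuc

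Methylation of the window as a whole was compared between WT and ZNF274KO. The mCG level was 29.7% and 28.0% in WT 1 and WT 2, and 61.6% and 43.6% in ZNF274KO 1 and ZNF274KO 2. Both ZNF274KO libraries were therefore above both WT libraries, and they lay farther apart than the WT pair. The WT mean was 28.9% ± 1.18 and the ZNF274KO mean 52.6% ± 12.7 (SD, n = 2), which differed by 23.7 points (p = 0.33 in a two-sided exact permutation test, below which 2 against 2 libraries cannot go). The size rested on the library, being 32.7 points for ZNF274KO 1 alone and 14.7 for ZNF274KO 2 alone against the WT mean. Sequencing depth moved with the groups, since the window took a smaller share of all reads in ZNF274KO than in WT, with a ratio of 0.866. The 200 kb on either side had a ratio of 0.859. Of the reads on chromosome 19 the window took 0.358% and 0.347% in WT 1 and WT 2. It took 0.352% and 0.330% in ZNF274KO 1 and ZNF274KO 2, so that the groups overlapped in this share. The part of depth in the methylation result was not tested.

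Most CpGs of the window had low levels in WT. Among 2232 CpGs that each library covered with at least 5 reads, 58.2% in WT 1 and 58.7% in WT 2 had a level under 20%. This share was 15.9% in ZNF274KO 1 and 36.0% in ZNF274KO 2. Levels over 80% were found at 12.8% and 12.4% of these CpGs in the WT libraries and at 36.2% and 20.2% in ZNF274KO 1 and 2. Intermediate levels, from 20% to 80%, also became more frequent, from 29.0% and 28.9% in WT to 48.0% and 43.8% in ZNF274KO. After the array they did not, being 43.98% and 41.8% in WT 1 and WT 2 against 30.0% and 41.0% in ZNF274KO 1 and ZNF274KO 2.

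**Figure D1:**
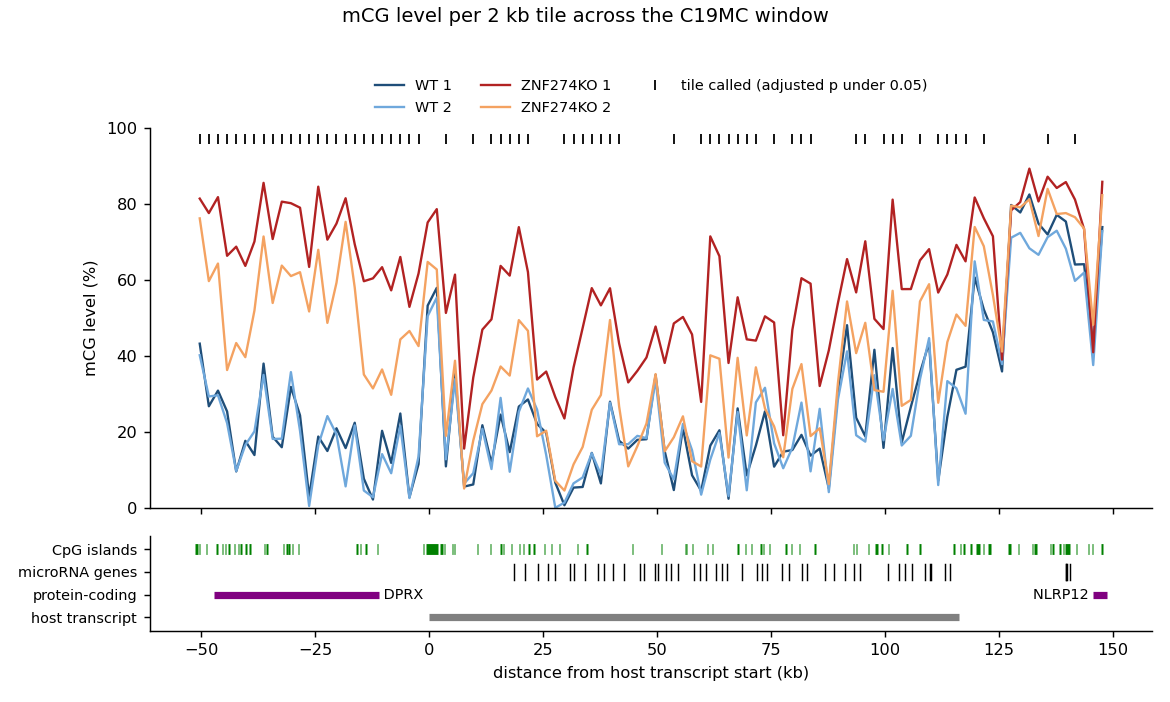
mCG level (%) of each 2 kb tile across the window against distance from the host transcript start (kb), 1 line per library, with ticks at the top for tiles called by edgeR and, below, the CpG islands, microRNA genes, protein-coding genes and the host transcript. ZNF274KO 1 was above both WT libraries in 98 of 100 tiles and ZNF274KO 2 in 87, with the widest separation before the host transcript start.

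To locate the difference, the window was split into 100 tiles of 2 kb, fitted with all 1357123 tiles of the autosomes and X that had enough reads. Of the 100, 64 were called higher in ZNF274KO (quasi-likelihood test of edgeR, adjusted p under 0.05), whereas 0.432% of all tiles tested were called higher. Calls were also frequent nearby, so that this share was not particular to the window. In the 200 kb before it 61 of 100 tiles (61.0%) were called higher, and on chromosome 19 outside the window 10.3% of tiles were. In the 200 kb after it 0 of 98 (0.0%) were called by edgeR or by limma, where 12 had an unadjusted p under 0.05 with edgeR and 3 with limma. No tile of the window was called lower with edgeR or limma, and in none was the ZNF274KO mean below the WT mean. At an unadjusted p under 0.05 there were 86 in the window and 6.31% of all tiles. Both ZNF274KO libraries exceeded both WT libraries in 86 tiles, an order found in 14.6% of all tiles. The median difference was 23.4 points (quartiles 14.02 and 34.8), against -0.478 points over all tiles, and 0.435% of all tiles differed by at least as much as the median tile of the window. WT tiles of the window were also low to begin with, at a median of 21.0% against 62.9% for all tiles.

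The number of calls depended on the test and on ZNF274KO 1. With limma on log2 ratios of methylated to unmethylated reads 2 of the 100 tiles were called (0.095% of all tiles). An unadjusted p under 0.05 was found with limma for 69 of them and for 6.24% of all tiles. In the 200 kb before the window limma called 4 of 100 tiles, and 73 had an unadjusted p under 0.05. Without ZNF274KO 1 edgeR called 29 (0.249% of all tiles). In that fit ZNF274KO 2 stood alone in its group and was assumed to vary as the WT libraries do. ZNF274KO 1 was above ZNF274KO 2 in 96 of the 100 tiles, compared with 61.4% of all tiles. The median difference of a tile from the WT mean was 33.8 points for ZNF274KO 1 and 12.5 points for ZNF274KO 2.

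The window was then divided into the part before the array, the array and the part after it, which differed in how far methylation moved. Before the array (1437 CpGs) the level was 24.03% and 22.9% in WT 1 and WT 2, and 67.1% and 48.2% in ZNF274KO 1 and ZNF274KO 2, a difference of 34.2 points. In the array (1664 CpGs) it was 19.8% and 19.7% in the WT libraries, and 51.1% and 29.5% in ZNF274KO 1 and 2, a difference of 20.5 points. After the array (794 CpGs) it was 62.4% and 58.1% in WT, and 75.4% and 68.6% in ZNF274KO, a difference of 11.7 points. In each part both ZNF274KO libraries were above both WT libraries (exact permutation p = 0.33 in each). In the array the difference was 31.3 points for ZNF274KO 1 and 9.71 for ZNF274KO 2.

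**Figure D2:**
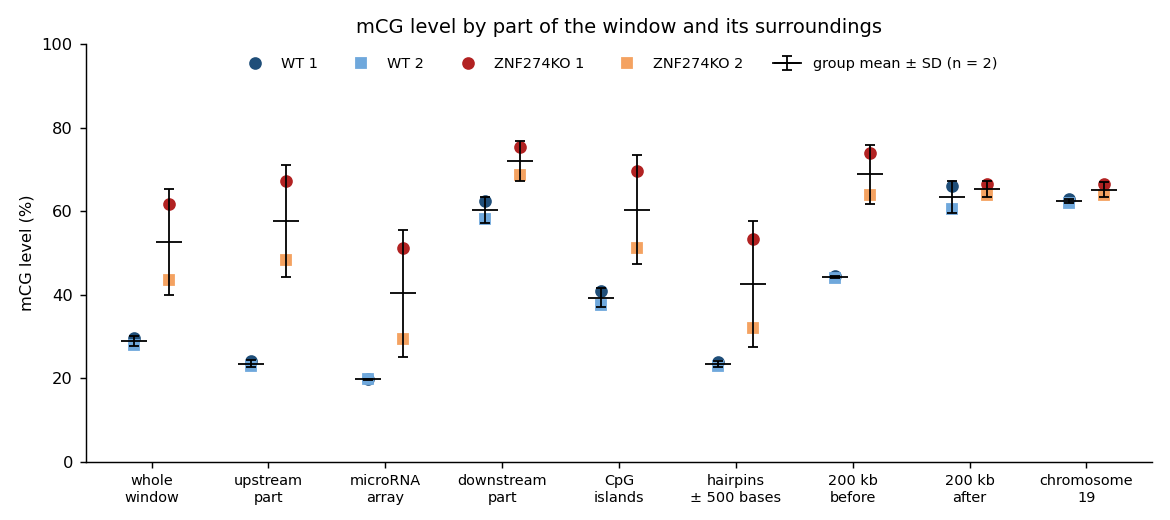
mCG level (%) of each library over the parts of the window, its flanks and chromosome 19, with bars at the group mean ± SD (n = 2). The 2 WT libraries coincided in the array at 19.8% and 19.7%, and the ZNF274KO libraries there stood at 51.1% and 29.5%.

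The array and the part before it had nearly equal levels in WT but not in ZNF274KO. The level of the array minus that of the part before it was -4.19 points in WT 1 and -3.18 in WT 2, and -16.0 and -18.7 points in ZNF274KO 1 and 2. This contrast did not overlap between the groups and changed by -13.7 points (exact permutation p = 0.33). The part before the array was itself uneven. From the window start to the host transcript start the group means differed by 40.3 points. From the host transcript start to the array they differed by 18.5 points, near the 20.5 points of the array. The contrast therefore does not place a break at the edge of the array. Among the tiles, 29 of 34 before the array, 28 of 47 within it and 5 of 17 after it were called, as were both tiles at its edges. The median differences were 39.8, 20.2 and 10.4 points in that order.

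The surroundings of the window did not behave alike. The 200 kb before it, which contains the zinc finger gene ZNF331, had levels of 44.4% and 44.1% in WT and of 73.8% and 63.8% in ZNF274KO, a difference of 24.6 points. The 200 kb after it had 66.0% and 60.6% in WT and 66.6% and 63.9% in ZNF274KO, and there the groups overlapped. Chromosome 19 outside the window differed by 2.66 points between the group means. The window minus both flanks was -26.5 ± 1.03 points in WT, compared with -14.2 ± 8.62 points in ZNF274KO (SD, n = 2), and so changed by 12.4 points (exact permutation p = 0.33). It was 18.4 points for ZNF274KO 1 alone and 6.26 for ZNF274KO 2 alone. With flanks of 100 kb it was 8.26 points. The 200 kb before the window differed by 24.6 points, no less than the window at 23.7 points, and the 200 kb after it by 1.96 points. The change against both flanks therefore came from the side after the window.

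DPRX, upstream of the array, held the 2 kb tiles with the largest differences. Across the gene (chr19:54104031-54140268, plus strand) the level was 19.1% and 19.4% in WT 1 and WT 2, and 72.4% and 53.2% in ZNF274KO 1 and ZNF274KO 2. This was a difference of 43.5 points between the means, with no overlap of the groups. Around its annotated start, 1 kb either side, 40 CpGs had levels of 42.6%, 35.6%, 82.3% and 73.1% in the same order. The 5 tiles with the largest differences all lay in DPRX, beginning at 54118001, 54122001, 54124001, 54126001 and 54132001.

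The tile that began at 54132001 had the largest difference of the window. Its level was 15.7% and 5.63% in WT 1 and WT 2, and 81.4% and 75.2% in ZNF274KO 1 and ZNF274KO 2, on 113 to 210 reads per library (difference 67.7 points, edgeR adjusted p = 9.94e-08). The ZNF274KO libraries were 6.22 points apart here, closer than over the whole window. Only 10 of its 20 CpGs lay in sequence that occurs once, and on these the difference was 59.2 points. In the tile at 54122001 it was 60.9 points on the 14 of 41 CpGs in such sequence. The tile that began at 54124001 was almost free of methylation in WT, at 2.93% and 0.478%, and reached 63.4% and 51.6% in ZNF274KO (edgeR adjusted p = 1.32e-08). The other 3 differed by 55.1, 48.2 and 58.6 points. Of the 5 tiles, limma called the tile at 54124001, and gave the others adjusted p between 0.0519 and 0.141.

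The host transcript of the array, ENSG00000269842, starts at 54151309 and ends at 54267453 on the plus strand. Its start lies within the longest CpG island of the window (chr19:54150722-54153361, 153 CpGs). The island had levels of 60.5% and 57.6% in WT 1 and WT 2, and 76.9% and 63.8% in ZNF274KO 1 and ZNF274KO 2. Its difference of 11.3 points was small for the window. The 300 bases around the start are shown for their density of CG dinucleotides, of which there are 28 (chr19:54151159-54151458, GRCh37, plus strand, CG in capitals). Their levels were 67.2%, 61.4%, 93.7% and 73.6% in the same order, on 329, 197, 63 and 201 reads. ZNF274KO 1 had at most 4 reads at each of these CpGs, so its level there was not firm.
Host transcript start: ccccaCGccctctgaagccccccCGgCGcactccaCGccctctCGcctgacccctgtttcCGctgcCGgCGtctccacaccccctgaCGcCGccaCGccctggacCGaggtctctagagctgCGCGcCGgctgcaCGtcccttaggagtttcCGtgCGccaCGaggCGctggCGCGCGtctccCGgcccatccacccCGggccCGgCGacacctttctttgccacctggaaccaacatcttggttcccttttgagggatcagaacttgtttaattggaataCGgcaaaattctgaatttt

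Levels were then taken in steps of 500 bases around the start. In the first 500 bases after it (35 CpGs) the levels were 69.0% and 71.2% in WT 1 and WT 2, and 67.9% and 76.7% in ZNF274KO 1 and ZNF274KO 2, which overlapped. The next step (32 CpGs) had 75.3%, 79.2%, 70.0% and 72.7%, on 33 to 73 reads. This order was not firm, since only 9 of the 32 CpGs had reads in every library. From 1000 to 1499 bases the levels were 66.2%, 56.3%, 83.2% and 62.7%, and in the 500 bases after that 47.3%, 48.02%, 75.2% and 46.6%, so that ZNF274KO 1 was above both WT libraries in these steps and ZNF274KO 2 was not. From 2000 to 2499 bases both ZNF274KO libraries were above WT, with 64.2%, 68.5%, 82.2% and 79.8%. Upstream, in the step from -3500 to -3001 bases, 6 CpGs had levels of 57.9% in ZNF274KO 1 and 34.3% in ZNF274KO 2, and the 5 CpGs from -3000 to -2501 had 48.0% and 44.2%. In these steps the WT levels were at most 4.17%. From 3000 to 3499 bases after the start the WT levels were 11.4% and 7.30%. The ZNF274KO levels there were 32.9% and 8.57%, of which the second lay between the WT libraries. In the steps from 2500 to 2999, 3500 to 3999 and 4000 to 4499 bases both ZNF274KO libraries were above both WT libraries.

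**Figure D3:**
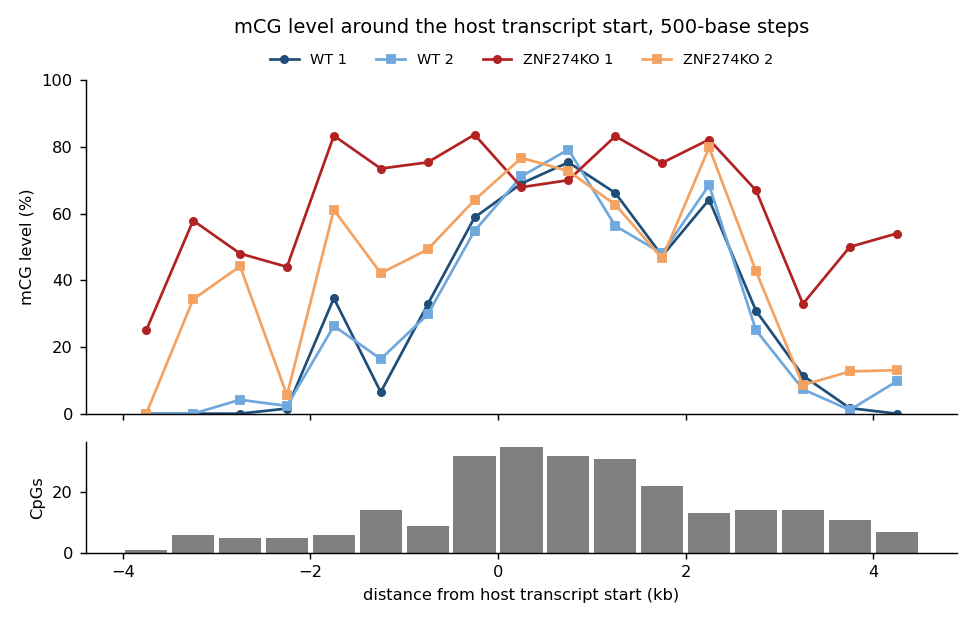
mCG level (%) in steps of 500 bases against distance from the host transcript start (kb), 1 line per library, with the number of CpGs per step below. All 4 libraries met between 67.9% and 76.7% in the first step after the start, and ZNF274KO lay above WT in the steps on the side before it, apart from the outermost step, which held 1 CpG.

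CpG islands were also taken as a class. By the criteria of length, GC content and observed over expected CpG, 92 stretches qualified, with a median length of 294 bases and 1414 CpGs. They held 7 to 153 CpGs each, and repeated sequence was not masked in the search. The class is therefore mostly short stretches and not long islands like that at the host transcript start, which differed by 11.3 points. Only 721 of these CpGs lay in sequence that occurs once in the genome. The summed level was 40.9% and 37.6% in WT 1 and WT 2, and 69.6% and 51.1% in ZNF274KO 1 and ZNF274KO 2, a difference of 21.1 points, and outside the islands it was 25.2 points. The ZNF274KO mean was higher in 87 islands and lower in 5, and both ZNF274KO libraries exceeded both WT libraries in 71 of the 92, an order found in 21.5% of the 18385 islands of chromosome 19 outside the window. The largest negative difference was -5.63 points. The largest positive one was 58.7 points, at an island of the array (chr19:54213462-54213667, 8 CpGs). The island of the array with the most CpGs (chr19:54249040-54249886, 36 CpGs) was among the 5, with 42.4% and 32.6% in WT and 39.1% and 26.3% in ZNF274KO, which overlapped.

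The methylation level was higher where CpGs were denser, in WT and in ZNF274KO. The 474 CpGs without another CG within 50 bases had a WT mean of 14.9% ± 0.922 and a ZNF274KO mean of 40.3% ± 13.2 (SD, n = 2). CpGs with 6 or more such neighbours (299 CpGs) had 60.8% ± 1.01 and 73.1% ± 11.6. The difference was 25.5, 26.4, 22.1 and 12.4 points for 0, 1 to 2, 3 to 5 and 6 or more neighbours. These classes pooled the parts of the window. From 0 to 6 or more neighbours the difference went from 38.2 to 12.2 points before the array. It went from 21.8 to 14.3 points in the array and from 13.3 to 9.21 after it. In the densest class of the array the groups overlapped, with 42.0% and 46.0% in WT and 74.4% and 42.1% in ZNF274KO. Tiles with lower WT levels tended to differ more, with a Pearson correlation of -0.424 between the WT level and the difference over the 100 tiles, in which the WT level enters both measures.

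**Figure D4:**
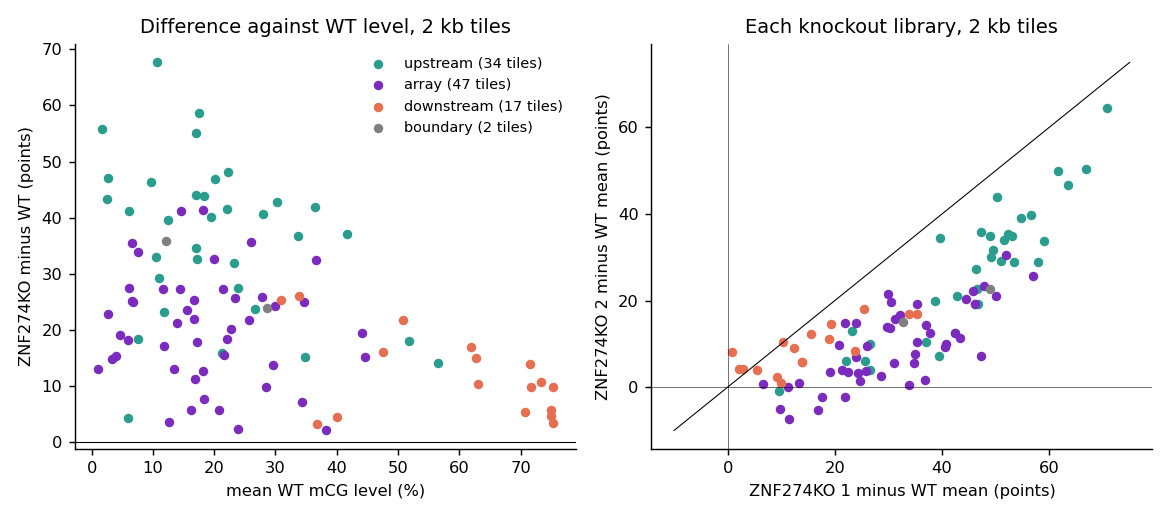
Left, ZNF274KO minus WT (points) against mean WT mCG level (%) for the 100 tiles, coloured by part of the window. Right, the difference of ZNF274KO 2 from the WT mean against that of ZNF274KO 1 (points), with the line of equality, which 96 tiles lie below.

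The microRNA genes themselves were described by the CpGs of each hairpin and of 500 bases on either side. Over all of these stretches together (884 CpGs) the level was 23.9% and 22.8% in WT 1 and WT 2, and 53.3% and 31.9% in ZNF274KO 1 and ZNF274KO 2, a difference of 19.2 points (exact permutation p = 0.33). It was 29.9 points for ZNF274KO 1 alone and 8.55 for ZNF274KO 2 alone. The ZNF274KO mean was higher around 46 of the 47 genes of the array, with a median difference of 17.5 points. ZNF274KO 1 exceeded both WT libraries at 45 of the 47, whereas ZNF274KO 2 failed to do so at 14. Both ZNF274KO libraries exceeded both WT libraries at 33 of the 47, and at 26.2% of the 107 microRNA genes of chromosome 19 outside the window.

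CpGs inside the hairpins were few. The array hairpins held 73, with levels of 27.8% and 30.7% in WT 1 and WT 2, and 59.6% and 37.2% in ZNF274KO 1 and ZNF274KO 2, on 411 to 740 reads. Hairpins of 3 named genes are shown to place these CpGs, in capitals, within the precursor from which the mature microRNA is cut. MIR1283-1 held 3 and lies at chr19:54191735-54191821, MIR519A1 held 1 and lies at chr19:54255651-54255735, and MIR373 held 2 and lies at chr19:54291959-54292027, all on the plus strand of GRCh37.
MIR1283-1: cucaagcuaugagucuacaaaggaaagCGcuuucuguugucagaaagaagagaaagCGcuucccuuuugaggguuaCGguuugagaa
MIR519A1: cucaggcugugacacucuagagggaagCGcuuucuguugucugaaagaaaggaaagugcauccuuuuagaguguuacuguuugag
MIR373: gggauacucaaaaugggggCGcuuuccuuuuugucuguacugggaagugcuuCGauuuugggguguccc

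The largest difference among the genes was found at the first gene of the array. Around MIR512-1 the level was 15.4% and 9.90% in WT 1 and WT 2, and 68.5% and 45.5% in ZNF274KO 1 and ZNF274KO 2, a difference of 44.4 points. MIR512-2, whose mature product is the same, had 23.8%, 24.3%, 73.8% and 55.6%, a difference of 40.6 points. Only 12 of the 42 CpGs around MIR512-1 and MIR512-2 lay in sequence that occurs once, so reads of the pair could be exchanged. The second largest difference, of 42.1 points, lay farther along the array at MIR524, with 14.7%, 6.76%, 68.6% and 37.2%. The gene after MIR512-2, MIR1323, was the only one with a lower ZNF274KO mean. It had 40.7% and 45.9% in WT, and 42.9% and 31.2% in ZNF274KO.

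ZNF274KO 1 was above ZNF274KO 2 at 46 of the 47 genes of the array, and the genes varied in whether ZNF274KO 2 also exceeded WT. Around MIR498 the levels were 20.4% and 12.7% in WT 1 and WT 2, and 33.1% and 16.8% in ZNF274KO 1 and ZNF274KO 2, so that ZNF274KO 2 lay between the WT libraries. Around MIR1283-1 they were 22.0%, 22.6%, 46.9% and 38.2%, with both ZNF274KO libraries above WT. MIR517A had 28.6%, 26.3%, 62.1% and 37.9%. MIR520G had 22.97%, 21.3%, 42.5% and 26.5%, a difference of 12.4 points that came mostly from ZNF274KO 1. The genes MIR520E and MIR515-1, whose surroundings had levels of at most 3.43% in WT, reached 22.4% and 25.3% in ZNF274KO 1 and 7.22% and 15.5% in ZNF274KO 2.

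The genes towards the end of the array varied in the same respect. MIR519A1 had 22.1% and 18.3% in WT 1 and WT 2, and 65.6% and 31.5% in ZNF274KO 1 and ZNF274KO 2. MIR519A2, the last gene, which makes the same miR-519a-3p, had 26.04%, 29.4%, 60.2% and 49.2%. At both of these genes ZNF274KO 2 was above WT. Between them lies MIR527, with 26.7%, 18.8%, 43.5% and 23.9%, where ZNF274KO 2 lay between the WT libraries. At MIR516A1 alone in the array ZNF274KO 2, at 73.7%, was above ZNF274KO 1, at 69.6%, with WT at 53.8% and 51.5%.

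**Figure D5:**
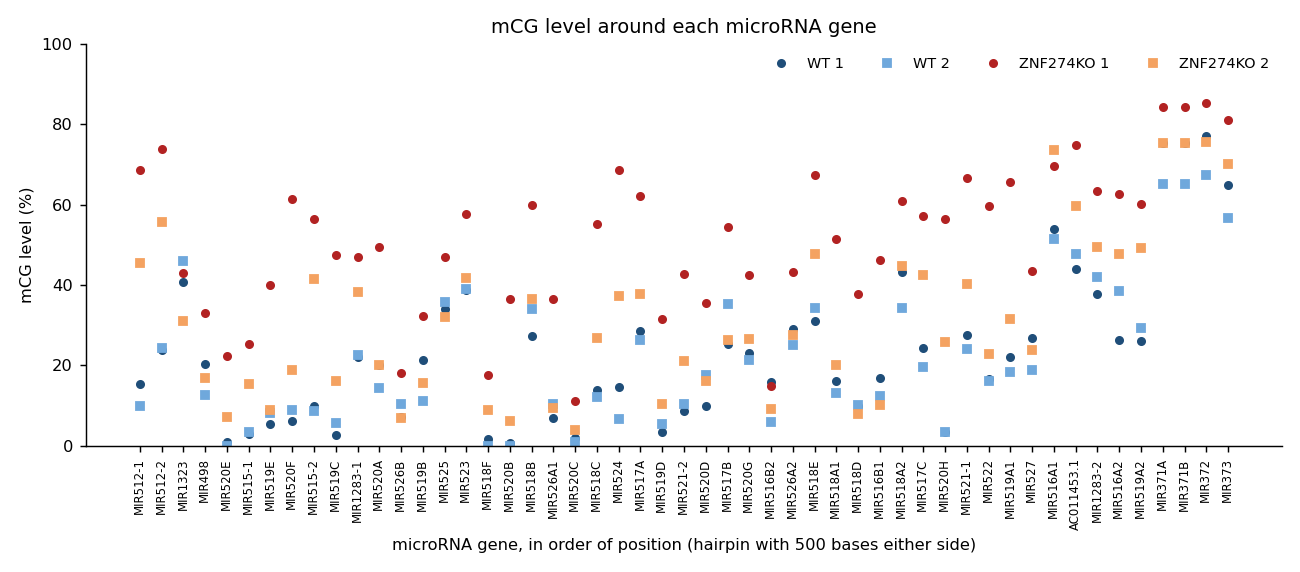
mCG level (%) of each library around each of the 51 microRNA genes (hairpin with 500 bases either side), in order of position. ZNF274KO 1 was the highest library at most genes of the array, ZNF274KO 2 lay at or below the higher WT library at 14 of 47, and at MIR371A to MIR373 no library was below 56.7%.

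The surroundings of the 4 genes after the array were methylated in every library. Around MIR371A, which shares its surroundings with MIR371B on the other strand, the level was 75.4% and 65.2% in WT 1 and WT 2, and 84.2% and 75.4% in ZNF274KO 1 and ZNF274KO 2. MIR372 had 77.1%, 67.5%, 85.2% and 75.6%, and MIR373 had 65.0%, 56.7%, 81.1% and 70.1%. The groups overlapped at MIR371A and MIR372 and not at MIR373, and the differences were 9.49, 8.10 and 14.7 points. All 4 genes start in the tile that began at 54290001. Of the tiles over them, the one that began at 54292001, which holds only the end of MIR373, was called. NLRP12, as far as it lies in the window (63 CpGs), went from 69.9% and 68.7% in WT to 81.8% and 76.6% in ZNF274KO.

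Grouping by seed gave the following differences, in which genes of a group share sequence and can share reads. A gene with more than 1 mature product can stand in several groups, as MIR519A1 and MIR518D do, so the groups reuse CpGs. Around the 19 genes with AAGUGC near the start of a mature product the level was 24.2% and 21.8% in WT 1 and WT 2, and 55.4% and 31.6% in ZNF274KO 1 and ZNF274KO 2. These include the 4 genes after the array, and without them the level was 11.9%, 12.4%, 47.6% and 23.4%. Both ZNF274KO libraries exceeded WT at 12 of the 19 genes, compared with 34 of all 51 microRNA genes of the window, and single genes differed by 3.76 to 44.4 points. The seed AAGUGCU was carried by 7 of them, with the order holding at 4. Pooled over the 7 the groups overlapped, but this sum mixed MIR372 and MIR373 with the 5 array genes, whose level was 6.85%, 7.72%, 32.1% and 10.3%. Around the 11 genes with the seed UCUAGAG the level was 16.8%, 16.5%, 46.9% and 23.3%, with the order holding at 7. Around the 6 genes with AAAGCGC it was 20.9%, 19.9%, 52.6% and 26.4%, with the order holding at 4. The 3 MIR517 genes had 25.9%, 28.5%, 57.6% and 35.9%. In each of these groups ZNF274KO 1 was the highest library, and the counts say nothing particular about a seed.

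The smallest differences between the group means came partly from tiles in which the ZNF274KO libraries lay on opposite sides of WT. The smallest was 2.11 points, in the array tile that began at 54248001, with 41.6% and 34.9% in WT 1 and WT 2, and 49.7% and 31.0% in ZNF274KO 1 and ZNF274KO 2 (edgeR adjusted p = 0.987). The groups overlapped there because ZNF274KO 1 was the highest and ZNF274KO 2 the lowest library. The tile of MIR1323, which began at 54174001, had 22.1%, 25.8%, 33.7% and 18.8%, again with ZNF274KO 1 the highest and ZNF274KO 2 the lowest. In the tile that began at 54276001 all 4 libraries were close, at 35.9%, 37.8%, 39.0% and 41.1%, and it lay downstream of the array next to tiles with WT levels near 75.4%. The other 2 of the 5 smallest differences were 3.52 points at 54278001 and 3.602 points at 54228001, the tile of MIR516B2.

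Repeated sequence was checked because the array holds many similar copies. Of the 3895 CpGs, 2434 (62.5%) lay in stretches of 50 bases that occur once in the converted genome. The share was 66.6% in the array, 60.9% before it and 56.8% after it. On these CpGs alone the difference between the group means was 22.5 points for the window, 31.8 before the array, 19.4 in it and 11.9 after it. Both ZNF274KO libraries exceeded both WT libraries on them in 79 of 100 tiles, against 86 on all CpGs. Such stretches were sought only around CpGs of the window, so no share over all tiles is given.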

How the data were processed

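The libraries were grouped and numbered by their titles. The authors sequenced 100-bp paired-end EM-seq libraries and processed the reads with Msuite2, with hisat2 as the mapper, on hg19 with an rDNA sequence added. They deposited, per library, read counts for each CpG, strand and base call (C, T or other), not pooled and not normalised. Calls other than C or T were left out here. Filters on duplicates and mapping quality are not given in the sources used here. Only CpGs with reads are listed, and reads from duplicated sequence may be shared between copies.

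Members, lists, parts and tests were chosen with earlier results of these data known. Genes came from GENCODE release 44 on GRCh37. RefSeq hairpins (GRCh38.p14 table) matched 43 of 51 microRNA genes at 1 place in the window, and 2 of the 51 came from RefSeq alone. Mature sequences and hairpins are RefSeq's, and the sequence at the host transcript start is GRCh37's. The sequence of 1 other stretch is not reported here. The array ran from the first to the last microRNA gene, without MIR371A, MIR371B, MIR372 and MIR373. CpG islands had at least 200 bases, 50% GC and 0.6 observed over expected CpG in 200-base windows, merged within 100 bases. Repeated sequence was not masked.

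Tiles of 2 kb entered the test when every library had at least 20 reads at 5 CpGs or more. R 4.3.3 and edgeR 4.0.16 were used to fit methylated against unmethylated counts, the depth of each library being a term of its own and the log-odds being estimated by group. Quasi-likelihood p-values were adjusted over all 1357123 tiles (Benjamini-Hochberg). The spread behind them was estimated for each tile with information shared across all tiles, and neighbouring tiles are not independent. Region levels were compared by exact permutation over libraries. Alternatives were limma 3.58.1 on log2 ratios (pseudocount 1), minimums of 10 and 50 reads, 10 CpGs and 3 reads per CpG, no CpG deeper than 5 times the median, 1 and 10 kb tiles, centring, a replicate block, single strands, unique CpGs, and each library left out. Genes named in the text were ZNF274, the protein-coding genes of the window, the first and last gene of the array, MIR498, MIR517A, MIR519A1, MIR520G, MIR1283-1, MIR371A, MIR372 and MIR373, with the 5 largest rises and 5 largest falls among tiles with at least 10 CpGs. As no tile fell, the 5 smallest differences stand for the falls. MIR512-2, MIR524, MIR527, MIR1323, MIR520E, MIR515-1, MIR516A1, MIR516B2 and ZNF331 were named after their values were seen. Levels were computed in Python 3.11.15 (numpy 2.4.6 and pandas 2.3.3), permutations with scipy 1.17.1 and plots with matplotlib 3.10.9.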

Additional observations from a re-analysis of the deposited data

How the results depend on the processing

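The count of called tiles stayed at 60 to 68 of 100 under the other read and CpG minimums, depth and centring settings, and was 74 with the replicate number as a block, which kept the 64 tiles called without it. It was 97 of 200 with 1 kb tiles, 9 of 20 with 10 kb tiles and 2 of 100 with limma. Leaving out a library gave 29 to 78, the lowest without ZNF274KO 1. The cause of the low count with limma was not tested. All 72 alternative values of the region levels and of the window minus its flanks kept their direction. The 28 that left out a library could not change sign, since both ZNF274KO libraries were above both WT libraries in each. Leaving out a library gave 14.7 to 32.7 points for the window, 9.71 to 31.3 for the array, 24.8 to 43.7 before it, 8.31 to 15.2 after it, 11.9 to 30.3 for the islands, 8.55 to 29.9 for the hairpin stretches and 6.26 to 18.4 for the window minus its flanks, the lowest without ZNF274KO 1 and the highest without ZNF274KO 2. The replicate block cannot change a difference between group means here, as each group holds 1 library of each number. It gave 23.7 points for the window. Leaving out CpGs deeper than 5 times the median did not alter the region differences either, and so was no further check. Across the tiles, WT 2 minus WT 1 and ZNF274KO 2 minus ZNF274KO 1 had a Pearson correlation of -0.172. As the ZNF274KO pair lay much farther apart than the WT pair, this cannot show whether the numbers pair the libraries. Of 120 alternative values for the 10 named tiles, 112 kept direction and call, and 4 lost the call, all with limma. Another 4 changed sign, all in tiles that had not been called. On the log2 odds scale, leaving out a library gave -0.43 (without ZNF274KO 1) to 0.70 (without ZNF274KO 2) at 54174001 and -0.46 to 0.68 at 54248001 for the same libraries. At 54248001 it also gave -0.07 without WT 2, and at 54278001 it gave -0.0726 (without WT 2) to 0.60 (without WT 1). In a fit that left a library out, the one remaining in its group was assumed to vary as the other group does. With 6 to 9 reads per CpG at the median, levels of single CpGs were imprecise, and 2 libraries per group cannot give an exact p under 0.33.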

Other observations

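The base that follows the CG on the strand read was looked at as well. In WT the level was highest before C, at 39.0% and 36.7%, then before G, at 31.1% and 29.4%, and lowest before A, at 23.4% and 22.7%, and T, at 22.4% and 20.4%. In ZNF274KO 1 and 2 it was 73.2% and 54.3% before C, 60.6% and 43.2% before G, 54.2% and 36.5% before A, and 56.0% and 38.0% before T. The differences between the group means were 25.9, 21.7, 22.3 and 25.6 points for C, G, A and T, so the order of the contexts in WT was not the order of the changes.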
